A study of Homo sapiens with 12 samples.

Results

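Mitochondria keep a small genome of their own, and the genes described here are its protein-coding genes together with nuclear genes that copy, transcribe, process and translate it. The first set was every row of the deposited expression table on chromosome MT, which gave 13 genes, each counted below as an mRNA. The second set was a hand-written list of 35 nuclear genes for mitochondrial DNA upkeep, transcription, RNA processing and translation, of which 34 were found by symbol and MTRFR by its Ensembl identifier, ENSG00000130921, under the older symbol C12orf65. Together they made 48 of the 19973 genes listed. Membership was set by chromosome and gene name and not by a measured value, but the list was chosen with earlier results of these data known. All 13 mRNAs and 34 of the 35 nuclear genes passed the filter on low values in both lines (a mean of at least 0.1 FPKM, fragments per kilobase of gene, scaled to library size), and TSFM, a translation elongation factor gene, did not. The mitochondrial rRNA and tRNA genes were not analysed here.

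RNA-seq compared ISP-I (10 μM, 48 h) with non-treated cells in H460 and A549, which are established human non-small cell lung cancer (NSCLC) lines, with 3 libraries in each of the 4 groups. ISP-I is isovalerylspiramycin I, a macrolide and a main component of carrimycin. Both lines carried the WT label, but the paper states that both have homozygous inactivating mutations of KEAP1. Whether the non-treated cells received a vehicle is not given in the sources used here. The labels do not say whether the 3 libraries came from separate cultures, so p-values measure the spread between libraries, which may be technical. Each library held 14225849 to 17874422 reads on listed genes, recovered exactly from the FPKM values. The epithelial keratins KRT8, KRT18 and KRT19 were at 43.8 FPKM or more in all 12 libraries, and the leukocyte gene PTPRC and the endothelial gene PECAM1 were at or near 0. EPCAM and CDH1, also epithelial, were near 0 in H460.

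The circular mitochondrial genome is transcribed from both strands into long precursors by the RNA polymerase POLRMT with TFAM and TFB2M. Most mRNAs lie between tRNA genes, and cutting out the tRNAs frees the mRNAs. MTPAP then adds a poly(A) tail, which completes the stop codon of mRNAs whose gene ends in a bare T or TA. The 13 proteins are subunits of respiratory complexes I, III, IV and V and are inserted into the inner membrane by OXA1L. Macrolides are known as antibiotics that bind bacterial ribosomes, and mitochondrial ribosomes are of bacterial ancestry.

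The ends of the genes are shown first, because the changes described later lined up with them in part. Each line gives the last 30 bases of a gene in hg38, 5′ to 3′ on its own strand, and the capitals mark the bases of the last codon that the gene itself encodes.
MT-ND1 (chrM:4233-4262, + strand): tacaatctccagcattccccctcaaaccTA
MT-ND2 (chrM:5482-5511, + strand): ctatctccccttttatactaataatcttaT
MT-CO1 (chrM:7416-7445, + strand): ttcgaagaacccgtatacataaaatctAGA
MT-CO2 (chrM:8240-8269, + strand): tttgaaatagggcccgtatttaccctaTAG
MT-ATP8 (chrM:8543-8572, + strand): tcgcttcattcattgcccccacaatccTAG
MT-ATP6 (chrM:9178-9207, + strand): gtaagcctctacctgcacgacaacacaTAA
MT-CO3 (chrM:9961-9990, + strand): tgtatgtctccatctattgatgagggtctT
MT-ND3 (chrM:10375-10404, + strand): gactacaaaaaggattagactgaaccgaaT
MT-ND4L (chrM:10737-10766, + strand): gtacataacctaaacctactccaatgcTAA
MT-ND4 (chrM:12108-12137, + strand): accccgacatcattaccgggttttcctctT
MT-ND5 (chrM:14119-14148, + strand): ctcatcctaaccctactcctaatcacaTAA
MT-ND6 (chrM:14149-14178, - strand): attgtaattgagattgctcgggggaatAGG
MT-CYB (chrM:15858-15887, + strand): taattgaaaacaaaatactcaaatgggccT
In 6 genes, MT-ND1, MT-ND2, MT-CO3, MT-ND3, MT-ND4 and MT-CYB, the last codon was partial (T or TA), and the next base began a tRNA gene on the same strand. In the other 7 the last codon was complete. Of these, MT-ATP8 ran into MT-ATP6, MT-ATP6 into MT-CO3 and MT-ND4L into MT-ND4, with 46, 1 and 7 shared bases. MT-ND5 and MT-ND6 met end to end on opposite strands with a gap of 0 bases. The strand setting of the read counting is not given in the sources used here. Reads from either strand, at that junction or anywhere over MT-ND6, may thus not have been told apart.

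MT-ATP8 is shown whole because its overlap with MT-ATP6 bears on its level. The gene lies at chrM:8366-8572 on the + strand, and the 46 capitals (chrM:8527-8572) are shared with the start of MT-ATP6.
MT-ATP8: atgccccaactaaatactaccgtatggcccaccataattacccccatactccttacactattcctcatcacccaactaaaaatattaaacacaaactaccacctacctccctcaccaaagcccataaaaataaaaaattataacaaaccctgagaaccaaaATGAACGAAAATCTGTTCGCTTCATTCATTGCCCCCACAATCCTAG
MT-ATP8 is 207 bases long and held 21 to 177 reads per library, against 9700 to 21711 for MT-ATP6. Both encode subunits of ATP synthase and are known to be made as 1 bicistronic mRNA. How a read that touches both genes was counted is not given in the sources used here, so the MT-ATP8 values are uncertain.

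A pair of libraries stood apart from their groups. Setting libraries of 1 group against each other over genes with reads, the variance was 28.0 to 98.7 times that of read sampling in the 4 pairs with H460 ISP-I library 3 or A549 control library 3, and 3.03 to 22.9 times in the other 8 pairs. No pair agreed within sampling noise. In H460 ISP-I library 3, the 17 nuclear genes of at most 600 bases had a median log2 ratio of 1.15 to the other libraries of the group, and the 5749 longer genes one of -0.05. In A549 control library 3 the medians were 0.44 over 14 short genes and 0.03 over 6560 longer ones. MT-ATP8, MT-ND3, MT-ND4L and MT-ND6 are themselves shorter than 600 bases, so their values are given with this in view.

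The share of reads on the 13 mitochondrial genes was lower after ISP-I in both lines. In H460 it was 4.79%, 4.82% and 4.51% in the control libraries and 2.79%, 2.43% and 2.50% after ISP-I. The groups did not overlap, and the mean went from 4.71% ± 0.172 to 2.57% ± 0.189 (SD, n = 3), a ratio of 0.547. In A549 the share was 4.12%, 3.77% and 4.01% in controls and 3.34%, 3.26% and 3.16% after ISP-I. There the mean went from 3.97% ± 0.180 to 3.25% ± 0.0899 (SD, n = 3), a ratio of 0.819, again without overlap. A 2-sided exact permutation test gave p = 0.1 in each line, the smallest value that 3 libraries against 3 allow. A share is relative to the other reads of its library. In bulk RNA, fewer mitochondria, less RNA in each, more RNA of other genes or a changed mix of cells cannot be told apart.

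**Figure D1:**
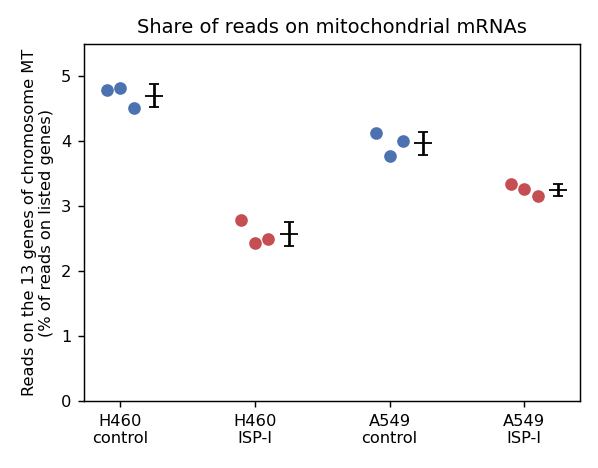
Percent of the reads on listed genes that fell on the 13 genes of chromosome MT (y axis, %) in each library (points) of the 4 groups (x axis), with the group mean and SD (black bars, n = 3). The H460 libraries drop from about 4.71% to 2.57% and the A549 libraries from 3.97% to 3.25%, with no overlap in either line.

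In H460, 8 of the 13 mitochondrial mRNAs fell after ISP-I and 5 did not pass the test. Of the 13 mRNAs, 5 were called lower (fold change over 2 and adjusted p under 0.05 by limma, adjusted over all genes) and 0 higher, against 15.2% lower and 10.5% higher among the 13423 genes tested. With no limit on size, the 8 that fell and 0 that rose stand against 41.5% lower and 27.6% higher among all genes. The median log2 fold change was -0.79 over the 13 mRNAs and -0.15 over all genes. Median-of-ratios scaling moved the median of all genes in H460 by 0.16, to 0.014. The mitochondrial mRNAs moved further, such as MT-CO2 from -1.64 to -1.36 and MT-ND1 from 0.13 to 0.41. Under that scaling 3 mRNAs were called lower (MT-CO2, MT-ND5 and MT-ND6), with a median of -0.51 over the 13. MT-CO1 (-0.94) and MT-ATP6 (-0.73) still passed under it, but at less than a 2-fold change.

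The cytochrome c oxidase (complex IV) mRNAs were the most abundant in H460 controls. MT-CO2 stood at 7385, 7631 and 6981 FPKM in controls and at 2439, 2146 and 2460.2 FPKM after ISP-I. Every treated library was below every control, and the log2 fold change was -1.64 ± 0.24 (SE, adjusted p = 0.000329). MT-CO1, the catalytic subunit, went from 11529, 11396 and 9752 to 5138, 4684 and 4207 FPKM (log2 fold change -1.22 ± 0.28 (SE), adjusted p = 0.00403), also without overlap. MT-CO3 went from 8672, 8951 and 8808 to 5163, 4259 and 5867 FPKM (log2 fold change -0.80 ± 0.28 (SE), adjusted p = 0.0293). Its groups did not overlap either, but it did not pass under median-of-ratios scaling (-0.52, adjusted p = 0.148) or without any 1 of 5 libraries: control 1, 2 and 3 (adjusted p = 0.092, 0.0862 and 0.0618) and ISP-I 1 and 2 (0.112 and 0.126). After ISP-I, MT-CO3 had the highest mean FPKM of the 13 in place of MT-CO1.

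Both ATP synthase (complex V) mRNAs fell in H460. MT-ATP6 was at 2039.7, 2099 and 1731 FPKM in controls and 1032, 913 and 959.9 FPKM after ISP-I (log2 fold change -1.01 ± 0.19 (SE), adjusted p = 0.00165). The groups were separate, though the fold change was under 2 without control 1, control 2 or ISP-I 2 (log2 -0.98, -0.96 and -0.97). MT-ATP8 was at 13.1, 13.7 and 16.9 FPKM in controls and 5.68, 9.86 and 9.44 FPKM after ISP-I (log2 fold change -0.76 ± 0.20 (SE), adjusted p = 0.00822), from few reads.

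Among the 7 complex I (NADH dehydrogenase) mRNAs of H460, MT-ND4, MT-ND5 and MT-ND6 fell, and the others did not pass the test. MT-ND6, the only mRNA made from the other strand, went from 1125, 1134 and 1492 FPKM to 333, 333 and 517 FPKM (log2 fold change -1.68 ± 0.23 (SE), adjusted p = 0.000252). Its treated libraries were all below the controls, with library 3 the highest of them. Since the strand setting is not given, the MT-ND6 values may include reads from the + strand. MT-ND5 went from 2354, 2320.2 and 2400.1 to 999, 940.4 and 779 FPKM (log2 fold change -1.39 ± 0.20 (SE), adjusted p = 0.000303). MT-ND4 went from 3227, 3351 and 2873 to 2101, 1994 and 1441 FPKM (log2 fold change -0.79 ± 0.24 (SE), adjusted p = 0.0176). Both separated cleanly by group, and MT-ND4 did not pass without control 1 or control 2 (adjusted p = 0.0658 and 0.0657) or under median-of-ratios scaling (-0.51, 0.106).

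The remaining complex I mRNAs overlapped between the groups. MT-ND1 was at 2322, 2029.8 and 2362 FPKM in controls and 2702, 2206 and 2435 FPKM after ISP-I (log2 fold change 0.13 ± 0.22 (SE), adjusted p = 0.618). MT-ND2 was at 2561, 2556 and 1911 FPKM in controls and 2747, 2301 and 1988 FPKM after ISP-I (log2 fold change 0.00 ± 0.24 (SE), adjusted p = 0.994). In both genes the ranges of the groups overlapped. In the short genes the spread was wide. MT-ND3 was at 1046, 1007 and 1644 FPKM in controls and 929, 768 and 3234 FPKM after ISP-I (log2 fold change 0.14 ± 0.51 (SE), adjusted p = 0.82), and without ISP-I library 3 the log2 fold change was -0.51. MT-ND4L was at 1077, 1136 and 3488 FPKM in controls and 913, 812 and 1635 FPKM after ISP-I (log2 fold change -0.61 ± 0.47 (SE), adjusted p = 0.281). Library 3 was the highest of its group for both genes, in controls and after ISP-I. Short nuclear genes were high in ISP-I library 3 but not in control library 3 (median log2 ratio -0.04). The part of short-gene recovery in these values was not tested. MT-CYB, the complex III subunit cytochrome b, was at 1781, 1958 and 1954 FPKM in controls and 2281, 1771 and 1660.2 FPKM after ISP-I (log2 fold change -0.01 ± 0.22 (SE), adjusted p = 0.976), and its treated libraries lay on both sides of the controls.

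**Figure D2:**
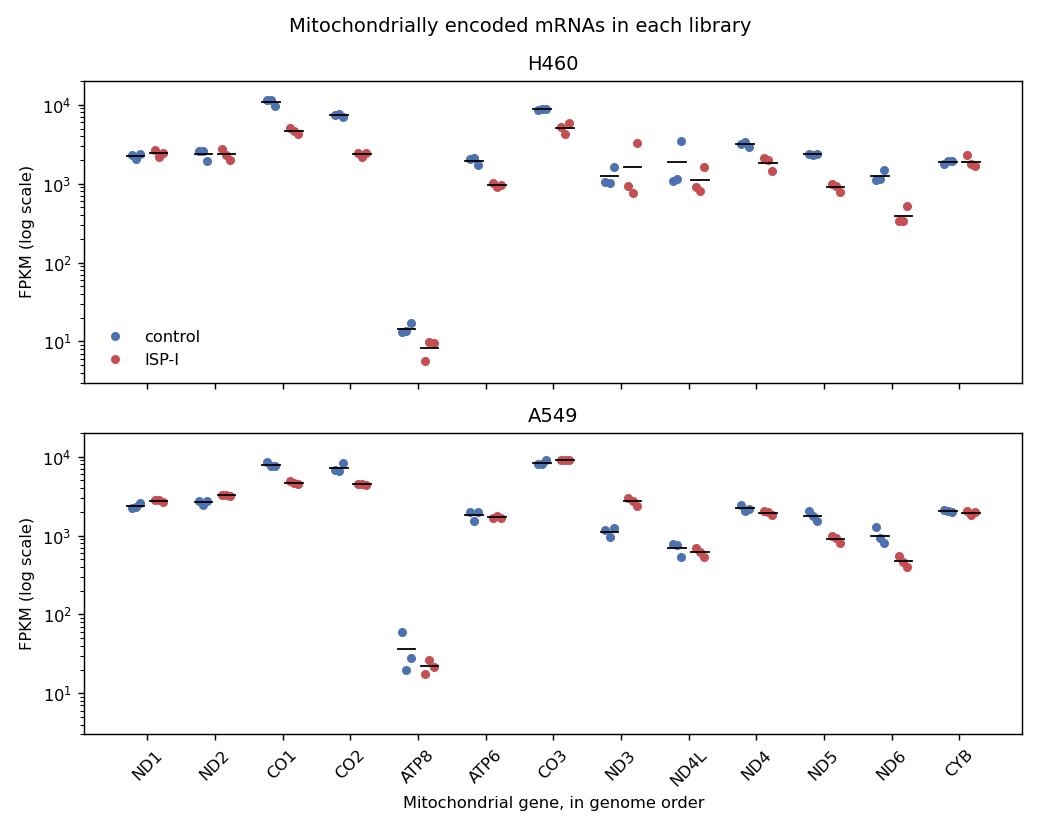
FPKM (log scale, y axis) of the 13 mitochondrially encoded mRNAs in genome order (x axis) in each of 3 control and 3 ISP-I libraries of H460 (top) and A549 (bottom). Points are libraries and black bars are group means. CO1, CO2, ND4, ND5 and ND6 are lower in every ISP-I library of both lines. CO3 separates downward in H460 and upward in A549, while CYB overlaps in both.

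In A549, 1 of the 13 mRNAs was called higher (MT-ND3) and 1 lower (MT-ND6), against 4.20% higher and 3.51% lower among the 13705 genes tested. At any size 1 rose and 4 fell, against 30.5% higher and 27.0% lower among all genes. The median log2 fold change was -0.16 over the 13 and 0.02 over all genes. The 4 that fell were MT-CO1, MT-CO2, MT-ND5 and MT-ND6, all of which also fell in H460.

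MT-CO1 went from 8523, 7695 and 7629 FPKM in A549 controls to 4851, 4684 and 4550.1 FPKM after ISP-I (log2 fold change -0.76 ± 0.13 (SE), adjusted p = 0.00144). MT-CO2 went from 6817, 6556 and 8209 to 4545, 4488 and 4429 FPKM (log2 fold change -0.67 ± 0.14 (SE), adjusted p = 0.00395). In both, all treated libraries were below all controls. MT-ND5 went from 2051, 1767 and 1543 to 987, 925 and 812 FPKM (log2 fold change -0.97 ± 0.13 (SE), adjusted p = 0.000415). MT-ND6 went from 1264, 924 and 806 to 556, 461 and 397 FPKM (log2 fold change -1.07 ± 0.18 (SE), adjusted p = 0.00142). These did not overlap either, and both lay near a 2-fold change. MT-ND6 was under it without control 1 (log2 -0.88) or ISP-I 3 (-0.95), and MT-ND5 was over it without control 3 (-1.07) or ISP-I 1 (-1.03).

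MT-ND3 moved the other way. It stood at 1173, 949 and 1236 FPKM in A549 controls and 2969.5, 2766 and 2383 FPKM after ISP-I (log2 fold change 1.28 ± 0.14 (SE), adjusted p = 0.000125). Its lowest treated library was above its highest control, and the log2 fold change stayed between 1.16 and 1.36 with each library left out. The gene is short (346 bases), and control library 3, in which short genes were high, held its highest control value.

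The other 8 mRNAs did not pass in A549. MT-CO3 was at 8001, 7968 and 9042 FPKM in controls and 9124, 9157 and 9080.3 FPKM after ISP-I (log2 fold change 0.13 ± 0.14 (SE), adjusted p = 0.454). MT-ATP6 was at 2007, 1507 and 1997 FPKM in controls and 1688, 1775 and 1677 FPKM after ISP-I (log2 fold change -0.09 ± 0.13 (SE), adjusted p = 0.599). MT-CYB was at 2079, 2025 and 1959.8 FPKM in controls and 2020.0, 1812 and 2001 FPKM after ISP-I (log2 fold change -0.06 ± 0.10 (SE), adjusted p = 0.657). The rest, MT-ND1, MT-ND2, MT-ATP8, MT-ND4L and MT-ND4, had log2 fold changes of 0.21, 0.30, -0.56, -0.16 and -0.19. Though they did not pass, MT-ND1, MT-ND2 and MT-CO3 were higher, and MT-ND4 lower, in every treated library than in every control. Without control library 3, MT-ND1 (log2 0.27, adjusted p = 0.00394), MT-ND2 (0.33, 0.0025) and MT-CO3 (0.19, 0.0455) passed as higher and MT-ND4L (-0.33, 0.0081) as lower. Without control library 2, MT-ATP8 passed as lower (-0.90, 0.0334).

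The changes lined up in part with the gene ends printed above, a grouping chosen after the values were seen and so given without a test. The 7 genes with a complete last codon had a median log2 fold change of -1.22 in H460 (range -1.68 to -0.61) and -0.67 in A549 (-1.07 to -0.09). The 6 with a partial last codon, each followed at once by a tRNA, had medians of -0.00275 (-0.80 to 0.14) and 0.17 (-0.19 to 1.28). The ranges of the sets overlapped in both lines. Of the first set, 6 fell in H460 and 4 in A549. Of the second, 2 fell in H460 (MT-CO3 and MT-ND4), none fell in A549 and MT-ND3 rose there. MT-CO2 is an exception in position, since a tRNA on its own strand follows 25 bases after its end, and it was among those that fell most. The grouping is by gene and not by transcript. MT-ATP8 and MT-ATP6, made as a bicistronic mRNA, both count in the first set. The overlapping MT-ND4L and MT-ND4 were in different sets (log2 -0.61 and -0.79 in H460, -0.16 and -0.19 in A549).

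**Figure D3:**
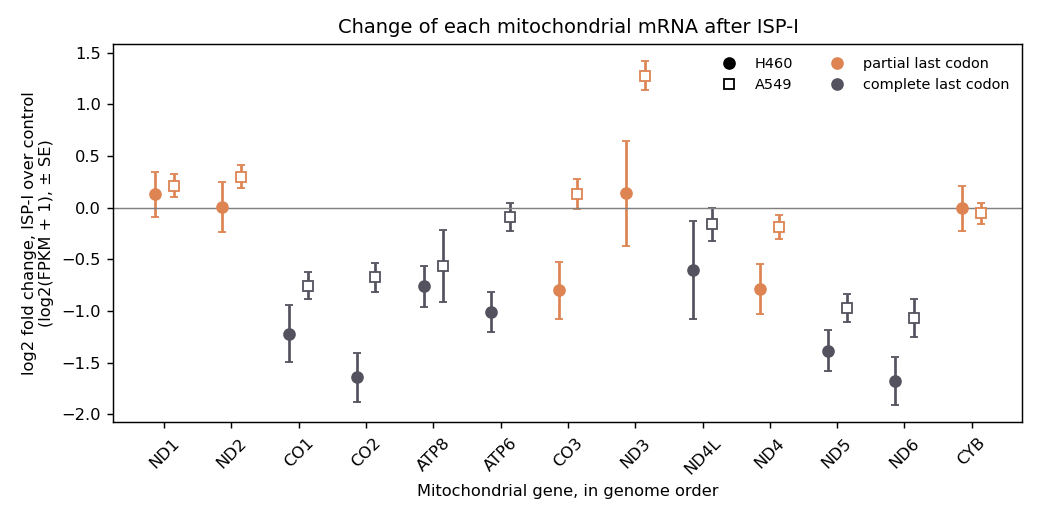
Log2 fold change of ISP-I over control on the log2(FPKM + 1) scale (y axis, ± SE) for each mitochondrial mRNA in genome order (x axis), in H460 (filled circles) and A549 (open squares), coloured by whether the gene holds a partial or a complete last codon. Genes with a complete last codon sit at or below -0.09 in both lines, and those with a partial one between -0.80 and 1.28.

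Ratios between mRNAs of the same library do not depend on how libraries are scaled. MT-CYB, which did not pass in either line, was used as the denominator for 4 of them, and the pairs were picked after the values were seen. MT-CO2 over MT-CYB went from 3.87 ± 0.29 to 1.25 ± 0.21 (mean ± SD, n = 3) in H460 and from 3.57 ± 0.54 to 2.31 ± 0.14 in A549. MT-CO1 over MT-CYB went from 5.76 ± 0.74 to 2.48 ± 0.20 and from 3.93 ± 0.15 to 2.42 ± 0.16. MT-ND6 over MT-CYB went from 0.658 ± 0.095 to 0.215 ± 0.086 and from 0.492 ± 0.10 to 0.243 ± 0.040. MT-ND5 over MT-CYB went from 1.24 ± 0.070 to 0.479 ± 0.047 and from 0.882 ± 0.10 to 0.468 ± 0.055. In these 4 ratios the treated libraries lay below every control of their line. Within complex IV, MT-CO3 over MT-CO2 went from 1.203 ± 0.051 to 2.16 ± 0.20 in H460 and from 1.16 ± 0.058 to 2.03 ± 0.022 in A549. Within complex I, MT-ND5 over MT-ND4 went from 0.752 ± 0.074 to 0.496 ± 0.039 and from 0.807 ± 0.080 to 0.468 ± 0.018. Both also separated by group. A ratio shows unequal change and not which of its members changed.

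**Figure D4:**
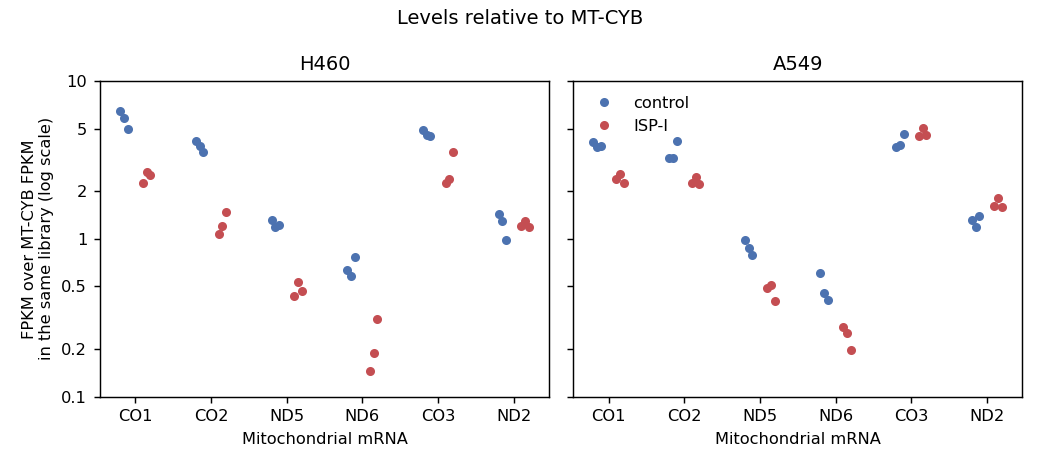
FPKM of 6 mitochondrial mRNAs divided by that of MT-CYB in the same library (y axis, log scale) in H460 (left) and A549 (right). Points are libraries, 3 per group. The ISP-I points of CO1, CO2, ND5 and ND6 lie below all control points in both lines, for CO2 at a mean of 1.25 against 3.87 in H460.

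The changes of the 13 mRNAs were ordered alike in the lines (Pearson's r = 0.836 and Spearman's rho = 0.868 across 13 genes, which share libraries and are not independent replicates). The difference between the lines was tested as an interaction over all 12 libraries. It passed for 3 mRNAs, each lower in H460, against 34.7% lower and 18.6% higher among the 13953 genes tested. They were MT-CO2 (difference -0.97, adjusted p = 0.00494), MT-CO3 (-0.93, adjusted p = 0.0122) and MT-ATP6 (-0.92, adjusted p = 0.00361). For MT-ND3 the difference was -1.14 (adjusted p = 0.128). Without H460 ISP-I library 3 the difference passed for 6 mRNAs, and under median-of-ratios scaling for 1.

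The nuclear machinery genes moved differently in the lines. In H460, 1 of 34 was called higher (MTPAP) and 7 lower (POLRMT, FASTK, MTIF3, ELAC2, OXA1L, MTIF2 and TUFM), against 10.5% and 15.2% of all genes. At any size 5 rose and 15 fell, against 27.6% and 41.5%. Their median log2 fold change was -0.28, against -0.15 over all genes. The gap between these medians depended on the setting. They were -0.28 and -0.22 with the low-value filter raised to 1 FPKM, and -0.31 and -0.28 with limma voom on recovered reads and library totals. With no filter they were -0.26 and -0.015, and with quantile normalization -0.17 and -0.058. A fall of these nuclear genes beyond that of all genes was thus not shown under every setting. Under median-of-ratios scaling 2 were called higher (MTPAP and SUPV3L1) and 3 lower (POLRMT, FASTK and MTIF3). ELAC2 (-0.89), MTIF2 (-0.81), OXA1L (-0.81) and TUFM (-0.73) still passed under it, but at less than a 2-fold change. With that scaling 11 rose and 14 fell at any size, and the median was 0.013, against 0.014 over all genes. The shares of all genes were not counted under it. The balance between the directions in H460 thus rested on the scaling. The 6 that passed as higher under it and not with the deposited scaling were TWNK, TFAM, MTERF4, LRPPRC, FASTKD2 and FASTKD5. In A549 none was called in either direction (0 of 34, against 4.20% and 3.51%). At any size 15 rose and 2 fell there, against 30.5% and 27.0% of all genes, with a median of 0.23 against 0.02. With limma voom on recovered reads, 2 were called higher in A549, again with no share of all genes counted.

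Among the 8 transcription genes, POLRMT and TFB2M moved in opposite directions in both lines. POLRMT (chr19:617221-633537, - strand), the mitochondrial RNA polymerase, was at 25.1, 28.3 and 27.2 FPKM in H460 controls and 10.2, 6.92 and 8.31 FPKM after ISP-I (log2 fold change -1.57 ± 0.15 (SE), adjusted p = 2.38e-05). In A549 it was at 26.2, 27.4 and 30.3 FPKM in controls and 20.2, 21.1 and 23.4 FPKM after ISP-I (log2 fold change -0.36 ± 0.08 (SE), adjusted p = 0.00619). The groups did not overlap in either line, and the fall was larger in H460 (difference -1.21, adjusted p = 9.05e-05). TFB2M, which opens the promoter with POLRMT, went from 41.8, 38.2 and 37.7 to 61.8, 61.05 and 70.03 FPKM in H460 (log2 fold change 0.70 ± 0.12 (SE), adjusted p = 0.000801). In A549 it went from 33.3, 29.2 and 29.3 to 52.2, 50.3 and 49.1 FPKM (log2 fold change 0.71 ± 0.07 (SE), adjusted p = 8.94e-05). Every treated library was above every control in both lines.

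TFAM, which packages mitochondrial DNA and activates its promoters, rose in A549 (log2 fold change 0.37 ± 0.13 (SE), adjusted p = 0.0425), but not without ISP-I 1, 2 or 3 (adjusted p = 0.0965, 0.0958 and 0.127). In H460 its log2 fold change was 0.34 ± 0.14 (SE, adjusted p = 0.062), and it passed without ISP-I 3 (0.39, 0.0294). TFB1M, a methyltransferase for the small mitochondrial rRNA, fell in H460 (-0.52 ± 0.10 in H460 against -0.03 ± 0.12 in A549), and the lines differed (adjusted p = 0.0169). MTERF3, of the mitochondrial transcription termination factor family, fell in H460 (-0.64 ± 0.13). In A549 it passed as higher without control 1 (0.24, adjusted p = 0.0471) or control 3 (0.14, 0.0372). In A549 MTERF1 (0.74 ± 0.14), MTERF4 (0.54 ± 0.08) and the elongation factor gene TEFM (0.48 ± 0.12) rose, while in H460 the 3 had log2 fold changes of 0.03, 0.11 and -0.18 that did not pass.

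The RNA processing and decay genes held both the largest rise and a large fall among the nuclear genes in H460. MTPAP (chr10:30309801-30374448, - strand), the mitochondrial poly(A) polymerase, went from 3.42, 2.90 and 3.06 FPKM to 7.18, 9.44 and 7.39 FPKM in H460 (log2 fold change 1.12 ± 0.13 (SE), adjusted p = 9.77e-05). In A549 it went from 5.04, 4.99 and 4.51 to 6.97, 7.99 and 7.64 FPKM (log2 fold change 0.54 ± 0.08 (SE), adjusted p = 0.00065). It was higher in all treated libraries of both lines, and more so in H460 (difference 0.57, adjusted p = 0.00596). SUPV3L1, the helicase that works with the nuclease PNPT1 in mitochondrial RNA decay, went from 18.4, 16.96 and 16.99 to 34.6, 32.6 and 32.5 FPKM in H460 (log2 fold change 0.89 ± 0.10 (SE), adjusted p = 9.7e-05). In A549 it went from 10.99, 10.03 and 11.9 to 14.05, 15.04 and 14.3 FPKM (log2 fold change 0.37 ± 0.08 (SE), adjusted p = 0.00417). PNPT1 itself did not pass in either line (0.07 and 0.33), though it did in A549 without control 1 (0.45, adjusted p = 0.0237) or control 3 (0.18, 0.0424).

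FASTK (chr7:151076593-151080866, - strand), whose mitochondrial form is known to be needed for MT-ND6 mRNA, was at 25.3, 30.6 and 24.2 FPKM in H460 controls and 9.47, 8.08 and 9.92 FPKM after ISP-I (log2 fold change -1.45 ± 0.13 (SE), adjusted p = 2.21e-05). In A549 it was at 21.9, 20.6 and 27.96 FPKM in controls and 20.7, 20.004 and 19.1 FPKM after ISP-I (log2 fold change -0.21 ± 0.11 (SE), adjusted p = 0.131). The H460 groups were far apart and the A549 groups overlapped, and the lines differed (difference -1.23, adjusted p = 9.88e-05). ELAC2, which cuts the 3′ ends of tRNAs, went from 52.4, 57.3 and 51.9 to 25.7, 22.1 and 22.99 FPKM in H460 (log2 fold change -1.16 ± 0.12 (SE), adjusted p = 3.53e-05) and had a log2 fold change of -0.16 ± 0.08 in A549 (adjusted p = 0.0987). FASTKD1 also fell in H460 (-0.97 ± 0.15) and was past a 2-fold change without control 2, control 3 or ISP-I 2 (log2 -1.02, -1.04 and -1.05).

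LRPPRC and SLIRP, partners that stabilise mitochondrial mRNAs, rose in A549 (0.51 ± 0.13 and 0.42 ± 0.13). SLIRP did not pass without control 1 or 2 or ISP-I 1 or 2 (adjusted p = 0.0509, 0.0615, 0.0625 and 0.107). In H460 SLIRP was at 18.9, 18.97 and 26.1 FPKM in controls and 9.08, 9.40 and 32.4 FPKM after ISP-I, so that ISP-I library 3 was above every control and the others below. Without that library its log2 fold change was -1.11 (adjusted p = 0.000111) and that of LRPPRC 0.79 (0.00176), and with it neither passed (-0.54 and 0.53). The span of SLIRP overlaps SNW1 on the other strand. FASTKD2 rose in A549 (0.51 ± 0.10) and did not pass in H460 with all libraries (0.41), though it did without ISP-I 3 (0.54, adjusted p = 0.0104) or control 1 (0.51, 0.0456). FASTKD3 rose in A549 (0.29 ± 0.10), but not without ISP-I 1, 2 or 3 or control 1 (adjusted p = 0.0587, 0.113, 0.116 and 0.091). FASTKD5, known for cutting at junctions without a tRNA, did not pass in either line (0.09 and -0.06), and its span lies within that of UBOX5 on the same strand.

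Of the 9 translation and insertion genes tested, 5 fell and 2 rose in H460 (all genes 41.5% and 27.6%), and 1 fell and 2 rose in A549 (27.0% and 30.5%). MTIF3, a translation initiation factor, was at 9.41, 8.50 and 9.55 FPKM in H460 controls and 2.97, 3.15 and 2.98 FPKM after ISP-I (log2 fold change -1.33 ± 0.11 (SE), adjusted p = 1.01e-05). OXA1L, the membrane insertase, went from 46.96, 45.3 and 55.9 to 21.6, 19.9 and 27.2 FPKM (log2 fold change -1.08 ± 0.15 (SE), adjusted p = 0.000249). TUFM, the elongation factor that brings charged tRNAs to the ribosome, went from 236, 284 and 277 to 135, 99.4 and 167 FPKM (log2 fold change -1.01 ± 0.20 (SE), adjusted p = 0.00208). All 3 were lower in every treated library of H460, and in A549 their log2 fold changes were 0.08, 0.05 and -0.01. The OXA1L fall was just under 2-fold without control 3 or ISP-I 2 (log2 -0.99 each), and that of TUFM was under it without control 2 (-0.96), control 3 (-0.98) or ISP-I 2 (-0.81). GFM2, which recycles ribosomes, also fell (-0.97 ± 0.12), past 2-fold without ISP-I 1 (-1.06). In A549 it passed as lower without control 3 (-0.24, adjusted p = 0.0088).

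MTIF2, the initiation factor that brings the first tRNA to the ribosome, passed in opposite directions in the lines. In H460 it was at 24.5, 16.7 and 23.3 FPKM in controls and 10.3, 11.8 and 7.15 FPKM after ISP-I (log2 fold change -1.07 ± 0.20 (SE), adjusted p = 0.00154). In A549 it was at 21.96, 24.4 and 12.9 FPKM in controls and 26.4, 30.4 and 30.996 FPKM after ISP-I (log2 fold change 0.59 ± 0.20 (SE), adjusted p = 0.0368). The groups separated in each line, and the difference between the lines was -1.66 (adjusted p = 0.000942). The H460 fall was under 2-fold without control 1 (log2 -0.97) or ISP-I 3 (-0.88). The A549 rise did not pass without ISP-I 1, 2 or 3 (adjusted p = 0.0636, 0.107 and 0.112), and A549 control library 3 held its lowest control value.

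MTRF1L, a release factor that reads stop codons, rose in both lines (0.50 ± 0.15 in H460 and 0.61 ± 0.14 in A549), and it did not pass in H460 without control 1 or 2 (adjusted p = 0.0527 and 0.0682). The elongation factor gene GFM1 rose in H460 (0.41 ± 0.12), but not without control 2 (adjusted p = 0.0606). In A549 GFM1 (0.26 with all libraries) passed without control 2 (0.32, adjusted p = 0.0474) or control 3 (0.14, 0.0382). MTRFR, a ribosome rescue factor, fell in A549 (-0.21 ± 0.08), but not without ISP-I 1, 2 or 3 or control 1 (adjusted p = 0.127, 0.145, 0.0761 and 0.131). MTRF1 did not pass in either line (0.02 and 0.11). TSFM was at 0 to 0.192 FPKM in every library, and its span overlaps AC025165.3 on the same strand.

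Of the 6 genes for mitochondrial DNA upkeep, 4 fell in H460, against 41.5% of all genes, and 2 rose in A549, against 30.5%. TOP1MT, the mitochondrial topoisomerase, was at 9.17, 9.86 and 9.91 FPKM in H460 controls and 4.54, 4.16 and 4.85 FPKM after ISP-I (log2 fold change -0.95 ± 0.11 (SE), adjusted p = 7.91e-05). The catalytic and accessory subunits of the DNA polymerase, POLG (-0.69 ± 0.10) and POLG2 (-0.55 ± 0.14), and the nuclease MGME1 (-0.66 ± 0.11) fell as well. POLG2 did not pass under median-of-ratios scaling (-0.32, adjusted p = 0.0733). In A549 these 4 had log2 fold changes from -0.12 to 0.15 and did not pass. TWNK, the replicative helicase, went from 21.1, 21.7 and 22.1 to 47.9, 40.7 and 43.9 FPKM in A549 (log2 fold change 0.99 ± 0.07 (SE), adjusted p = 1.75e-05). Every treated library was above every control, close to a 2-fold change, and past it without control 3 (1.01) or ISP-I 2 (1.05). In H460 TWNK was at 32.6, 35.9 and 36.7 FPKM in controls and 39.1, 36.99 and 41.9 FPKM after ISP-I (log2 fold change 0.16 ± 0.11 (SE), adjusted p = 0.233). The single-strand binding protein gene SSBP1 rose in A549 (0.36 ± 0.07) and did not pass in H460 with all libraries (-0.26), though it did without ISP-I 3 (-0.37, adjusted p = 0.0121). Its span overlaps TAS2R3 and TAS2R4 on the same strand.

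**Figure D5:**
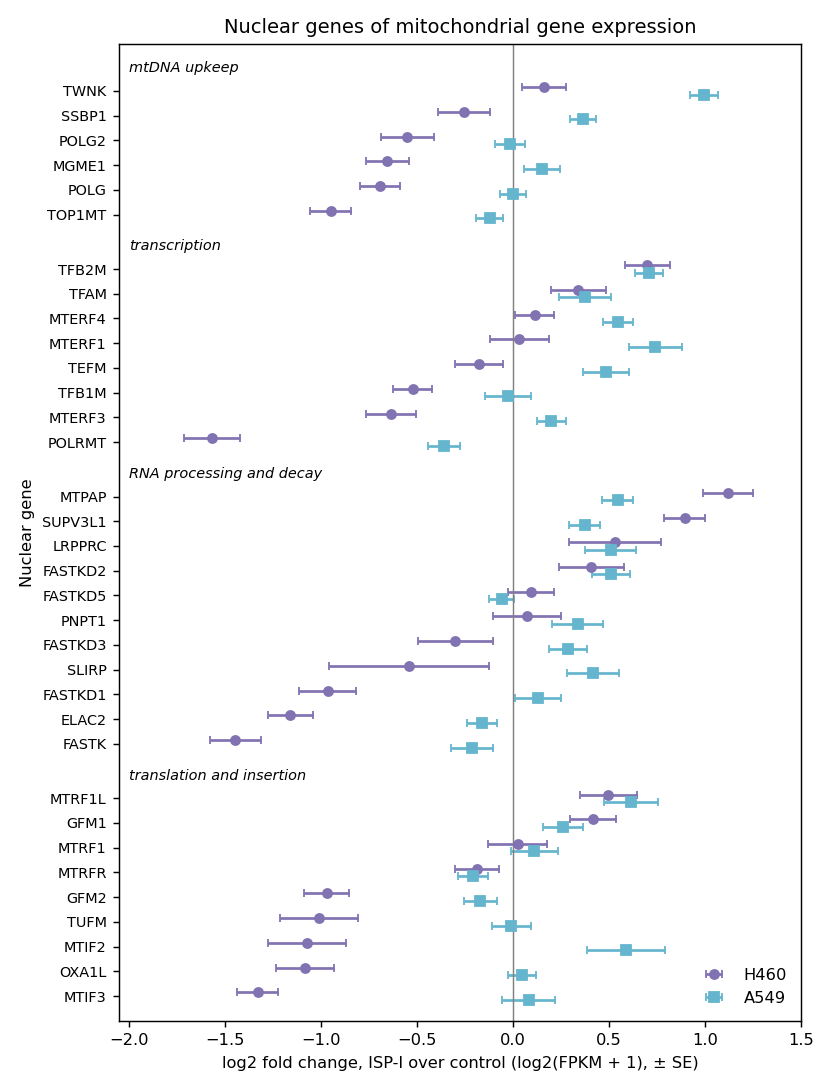
Log2 fold change of ISP-I over control on the log2(FPKM + 1) scale (x axis, ± SE) for the 34 nuclear genes tested (y axis), grouped by role, in H460 (circles) and A549 (squares). POLRMT is lowest in both lines, at -1.57 in H460 and -0.36 in A549, and MTPAP is highest in H460 at 1.12.

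The change in H460 minus that in A549 passed the interaction test for 22 of the 34 nuclear genes, 2 higher (MTPAP and SUPV3L1) and 20 lower, against 18.6% and 34.7% of all genes. It was lower for all 6 upkeep genes, 6 of 8 transcription genes, 3 of 11 RNA processing and decay genes and 5 of 9 translation genes. The largest differences after MTIF2 were those of MTIF3 (-1.41), FASTK (-1.23) and POLRMT (-1.21). TFB2M (-0.01) and TFAM (-0.03) were among those that did not pass (adjusted p = 0.954 and 0.901). Across the 34 genes the changes of the lines had a Pearson's r of 0.667 and a Spearman's rho of 0.672, as a description across genes that share libraries. Under median-of-ratios scaling 4 were higher and 14 lower in H460, with no share of all genes counted.

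Promoters of the nuclear genes were read from RefSeq (GRCh38.p14, 250 bases before to 50 after the start), which held 31 of the 35 at full length. The NRF1 core GCGCATGC, bound by a known activator of mitochondrial genes, was searched on both strands and occurred in 5 of the 31 (16.1%) and in 3.27% of 27305 promoters. The 5 were MTPAP, MTRFR, POLRMT, TFB1M and TFB2M. The core of ETS factors, CCGGAAG, occurred in 15 of the 31 (48.4%) and in 10.7% of all. The promoters of POLRMT and MTPAP, the largest fall and rise in H460, are shown because both hold the NRF1 core. Those of FASTK (-1.45) and SUPV3L1 (0.89), the next largest fall and rise, held 0 matches to the NRF1 core and 0 to the ETS core. Capitals mark matches on either strand.
POLRMT (chr19:633488-633787, - strand): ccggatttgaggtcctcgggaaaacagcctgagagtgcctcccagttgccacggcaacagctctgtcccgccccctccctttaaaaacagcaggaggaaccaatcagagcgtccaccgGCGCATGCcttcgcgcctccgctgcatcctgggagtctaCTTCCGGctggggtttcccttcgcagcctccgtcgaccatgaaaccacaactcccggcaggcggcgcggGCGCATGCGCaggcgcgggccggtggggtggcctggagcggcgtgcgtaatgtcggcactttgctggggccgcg
MTPAP (chr10:30349229-30349528, - strand): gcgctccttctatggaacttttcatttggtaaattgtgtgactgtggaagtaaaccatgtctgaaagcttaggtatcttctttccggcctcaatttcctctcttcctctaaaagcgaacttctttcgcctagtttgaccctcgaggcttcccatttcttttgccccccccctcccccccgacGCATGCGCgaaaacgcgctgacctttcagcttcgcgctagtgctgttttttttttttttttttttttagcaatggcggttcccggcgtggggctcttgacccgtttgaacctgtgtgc
POLRMT held 3 matches to the NRF1 core, a pair of which overlap on opposite strands, and 1 to the ETS core, and MTPAP held 1 to the NRF1 core. The start used for MTPAP lies inside the span the table gives for the gene. A match is a description of the letters and not a binding site.

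A wider list of 92 other genes of mitochondrial gene expression was counted in the same fits. In H460 4 were called higher and 13 lower of 92 tested, against 10.5% and 15.2% of all genes. At any size 22 rose and 35 fell there, against 27.6% and 41.5%, with a median log2 fold change of -0.18 against -0.15. In A549 2 were called higher of 90 tested, against 4.20%. At any size 40 rose and 9 fell, against 30.5% and 27.0%, with a median of 0.18 against 0.02.

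ALKBH1, a tRNA demethylase, went from 10.01, 10.8 and 9.996 to 33.1, 31.9 and 33.9 FPKM in H460 (log2 fold change 1.59 ± 0.10 (SE), adjusted p = 3.41e-06). In A549 it went from 7.14, 7.26 and 7.99 to 19.8, 18.6 and 19.3 FPKM (log2 fold change 1.26 ± 0.07 (SE), adjusted p = 4.25e-06). The groups did not overlap, and ALKBH1 was the only one of the 92 called higher in both lines. The other large changes in H460 were rises of YRDC (1.39 ± 0.21), a tRNA modification enzyme, and PDE12 (1.21 ± 0.12), which removes poly(A) from mitochondrial RNA, and falls of GTPBP3 (-1.93 ± 0.12), a tRNA modification enzyme, and IARS2 (-1.46 ± 0.14), which charges tRNA-Ile. RRM2B, the p53-regulated ribonucleotide reductase subunit, was called higher in A549 (log2 fold change 1.07 ± 0.22 (SE), adjusted p = 0.00399), with 13.7, 15.4 and 7.29 FPKM in controls and 24.6, 25.2 and 26.4 FPKM after ISP-I. A549 control library 3 held its lowest value. At any size in H460, against 41.5% lower and 27.6% higher among all genes, 10 fell and 3 rose of 20 charging genes, 8 fell and 3 rose of 19 ribosome assembly genes, 6 fell and 0 rose of 9 nucleoid enzymes, and 5 fell and 8 rose of 19 tRNA processing and modification genes. In A549, against 30.5% higher and 27.0% lower, 10 rose and 2 fell of 19 tRNA processing and modification genes, 7 rose and 1 fell of 19 ribosome assembly genes, 7 rose and 1 fell of 11 granule and turnover genes, and 5 rose and 0 fell of 8 nucleotide supply genes. These counts describe the lists and were not tested.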

How the data were processed

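RNA was extracted with TRIzol and the RNeasy kit, libraries were made with the TruSeq RNA Sample Preparation Kit and sequenced as 150 bp paired-end reads. Per the study's methods, the authors used FastQC to filter reads, HISAT2 to align them to hg38 and HTSeq 0.9.1 to count them. The deposited table gives FPKM per gene, normalized by the authors to gene length and the reads on listed genes. Its annotation release is not given in the sources used here. Multiplying FPKM by length gave whole reads for 100% of values (tolerance 0.01). Column names give line and treatment only, so libraries were numbered by order within a group.

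Within each line, log2(FPKM + 1) was fitted with limma 3.58.1 (mean-variance trend, R 4.3.3) leaving out genes whose mean was below 0.1 FPKM, with Benjamini-Hochberg adjustment over all genes tested. Fold changes are on the log2(FPKM + 1) scale, which understates changes of low genes. Calls needed both an adjusted p under 0.05 and more than a 2-fold change, and "rose" or "fell" at any size stands for an adjusted p under 0.05 alone. The interaction fit used all 12 libraries. The fit was run on simulated reads with the same spread setting for every gene, balanced changes and no outlying library. The libraries here differ in these respects, so the simulation does not give error rates for them. All 13 mitochondrial genes, the called nuclear genes and the 2 largest changes per role and line were named, and of the other pathway genes the 3 largest rises and falls among those called. Members, lists and tests were chosen with earlier results of these data known. Gene ends came from hg38 and GENCODE 44, in which all 13 genes had the coordinates of the table. A result among the other pathway genes is not reported here.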

Additional observations from a re-analysis of the deposited data

Results flagged for a closer look

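The change after ISP-I differed between H460 and A549 for 25 of the 47 genes tested, by the interaction term over all 12 libraries (limma, adjusted p under 0.05). Values are the log2 fold change in H460 minus that in A549. Among the mitochondrial mRNAs these were MT-CO2 (-0.97), MT-ATP6 (-0.92) and MT-CO3 (-0.93). The upkeep genes were TWNK (-0.83), POLG (-0.69), POLG2 (-0.53), SSBP1 (-0.62), TOP1MT (-0.83) and MGME1 (-0.81). The transcription genes were POLRMT (-1.21), TFB1M (-0.50), TEFM (-0.66), MTERF1 (-0.71), MTERF3 (-0.83) and MTERF4 (-0.43). Among RNA processing and decay genes, FASTK (-1.23), FASTKD1 (-1.09) and ELAC2 (-0.997) were lower in H460, and MTPAP (0.57) and SUPV3L1 (0.52) were higher. The translation and insertion genes were GFM2 (-0.80), TUFM (-0.999), MTIF2 (-1.66), MTIF3 (-1.41) and OXA1L (-1.13). Of all genes tested, 34.7% were lower in H460 and 18.6% higher. No explanation was tested.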

How the results depend on the processing

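No paired analysis was possible because the columns of the table carry no replicate numbers of the labels. Over the 47 genes and all alternatives, 631 values in H460 and 638 in A549 kept their direction and side of the threshold, 20 and 31 no longer passed, 26 and 25 newly passed and 28 and 11 changed direction. Median-of-ratios scaling moved the median of all genes in H460 by 0.16, to 0.014, and that of the 13 mitochondrial mRNAs from -0.79 to -0.51. Under it H460 had 3 mitochondrial mRNAs called lower, and 2 nuclear genes called higher, 3 called lower and 11 rising (nuclear median 0.013). Log2 fold changes in H460 turned to 0.27 for MT-CYB, 0.013 for SSBP1, 0.049 for TEFM and 0.037 for MTRFR. A549 had 2 mitochondrial mRNAs called lower, and the line difference was lower for 1 mitochondrial and higher for 4 nuclear genes. Under voom with median-of-ratios factors H460 had 3 mitochondrial mRNAs called lower and 1 rising (median -0.52), 2 nuclear genes called higher, 3 called lower and 11 rising (median -0.029), and MT-CYB, SSBP1, TEFM and MTRFR were at 0.27, 0.012, 0.055 and 0.044. A549 had 2 mitochondrial mRNAs called lower and 2 rising. Quantile normalization left 8 rising nuclear genes in H460 (median -0.17) and put MT-CO3 at 0.091, TEFM at 0.060 and MTRFR at 0.035 there, with MT-ATP6 at 0.069, MT-CYB at 0.025 and the nuclear median at 0.18 in A549. The total without chromosome MT put MT-ND2 at -0.030 and MTRF1 at -0.00016 in H460. With no filter 5 mitochondrial mRNAs fell in H460. In A549 1 nuclear gene fell with no filter, and 1 with all 12 libraries in 1 fit. In A549, 2 mitochondrial mRNAs rose with a mean of at least 1 FPKM or a pseudocount of 0.1, and 3 with voom on library totals, and nuclear genes called higher were 1 with the pseudocount of 0.1 and 2 with voom. As a percent of summed FPKM the log2 ratio of the mitochondrial share was -0.73 in H460 and -0.21 in A549. The cause of these changes was not tested. Shares of all genes were counted only in the fits described for each line and for the interaction. The counts under other settings thus stand without a share beside them.

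Leaving out each library in turn gave 3 to 8 rising nuclear genes in H460 (8 without ISP-I 3), with a median of -0.31 to -0.18. In A549 it gave 0 to 2 mitochondrial mRNAs called lower, 1 to 4 rising (4 without control 3), 0 to 1 nuclear genes called higher, 1 to 3 falling and a nuclear median of 0.14 to 0.26. The line difference was lower for 3 to 6 mitochondrial mRNAs. Directions changed within -0.14 to 0.12 for MT-ND2, -0.51 to 0.53 for MT-ND3, -0.14 to 0.084 for MT-CYB, -0.062 to 0.18 for MTERF1, -0.060 to 0.22 for PNPT1 and -0.11 to 0.13 for MTRF1 in H460. In A549 they did within -0.024 to 0.038 for POLG, -0.051 to 0.038 for POLG2, -0.12 to 0.10 for TFB1M, -0.082 to 0.10 for TUFM, -0.071 to 0.22 for MTIF3 and -0.012 to 0.21 for MTRF1. None of these 12 passed the test with all libraries. MT-ATP8 and TSFM had too few reads for firm values.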
